A study of Sus scrofa with 10 samples.

Results

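The 67 genes described here are the nuclear genes whose names mark them as subunits of the respiratory chain, the enzyme complexes of the inner mitochondrial membrane that oxidise NADH and succinate and make ATP. They were found by name among the 27376 rows of a pig gene count table: 36 belong to complex I, 4 to complex II, 2 to complex III, 8 to complex IV and 17 to complex V. NDUFA4 is counted here with complex IV, where it is now placed, and 2 of the complex V names, ATP5S and ATP5SL, are no subunits of the enzyme, so that 65 of the 67 are subunits. Counts and sums of complex V include ATP5S and ATP5SL. Subunits of complexes III and IV that go under other names, or that the table does not hold, were not analysed here. NDUFAB1, an accessory subunit of complex I that the name rule did not take in, is counted further below with electron carriers and partner proteins.

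RNA was measured in 10 libraries of pig (Sus scrofa) tissue with QuantSeq, which counts polyA RNA by reads at the 3' end of transcripts. The 4 GF libraries came from grafts grown from germ cells together with testicular fibroblasts, and the 4 FO libraries from grafts of testicular fibroblasts without germ cells. Per the labels, both kinds of graft were made by injecting primary pig cells, held in a high concentration of Matrigel, under the dorsal skin of a mouse named SKID in the labels, and were recovered after 6 months. The 2 control libraries came from testis tissue; their titles hold an unexplained code, 5D, and no age is given. Their growth-protocol and cell-type fields repeat those of GF, so the labels leave unclear whether this tissue was ever grafted. GF and FO differ in the germ cells put into the graft, and both are set against the control. No label states that replicates came from different animals or grafts, so p-values measure the spread between libraries, which may be technical. The table lists pig genes, and cells of the host mouse were not measured separately.

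Complex I, the largest of the chain, takes electrons from NADH through a flavin and a row of iron-sulfur clusters to ubiquinone; its core subunits do the chemistry, and its many accessory subunits surround them. Complex II oxidises succinate, complex III passes electrons on to cytochrome c, complex IV hands them to oxygen, and complex V, the ATP synthase, uses the resulting proton gradient. A few core subunits of complexes I, III, IV and V are encoded in mitochondrial DNA, and all other subunits are nuclear genes translated on cytosolic ribosomes. In the testis, Sertoli cells live largely by glycolysis and feed lactate to the germ cells, which oxidise it, and Leydig cells begin steroid synthesis inside mitochondria.

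Totals ran from 2915534 to 4917325 counts in GF, from 4033509 to 4887878 in FO, and were 5844944 and 7013911 in control testis. Testis markers were present in all groups: the 5 Sertoli cell genes summed to 14627 to 45402 CPM in GF, 4645 to 8543 in FO and 4604 to 5141 in control testis, where CPM are counts scaled to library size with TMM, a method that equalises libraries on most genes. The 5 Leydig cell genes summed to 1342 to 2912 CPM in GF, 443 to 3589.8 in FO and 13718 to 16346 in control testis. The 4 early germ cell genes summed to 82.6 to 259.6 CPM in GF, 1.95 to 5.87 in FO and 79.8 to 82.8 in control testis, and the 6 spermatid genes to 216 to 2235 CPM in GF, 0.212 to 4.46 in FO and 0.453 to 0.989 in control testis, where PRM1, PRM2 and ODF1 were at 0. The 6 fibroblast genes summed to 1476 to 2663 CPM in GF, 3802 to 5906 in FO and 4259 to 4278 in control testis. GF 3 and GF 4 had the lowest totals and lay farthest from the other libraries on the first principal component, and GF 3 and FO 1 carried skeletal muscle transcripts (193 and 756 CPM over 10 genes, against at most 25.8 elsewhere). These are bulk samples, so fewer cells of a type and less RNA per cell cannot be told apart.

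Respiratory chain genes took the largest share of counts in control testis and smaller shares in both kinds of graft. The 67 genes held 0.989, 0.914, 0.756 and 0.714% of all counts in GF 1 to GF 4, 0.903, 0.977, 0.905 and 0.847% in FO 1 to FO 4, and 1.25% or more in the control libraries. GF 3 and GF 4 had the lowest shares of the 10 libraries, and every graft library lay below both control libraries. On the scaled level, all members summed to 7988 ± 736 CPM for GF and 9533 ± 779 CPM for FO (SD, n = 4 each), against 13514 ± 2116 CPM in control testis (SD, n = 2). These sums, and the sums by complex that follow, are descriptions without a test.

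How GF and FO stood to each other differed between the complexes. Complex I summed to 2639, 2447, 3164 and 2656 CPM in GF 1 to GF 4, 2484, 2587, 2430.1 and 2158 CPM in FO 1 to FO 4, and 3616 and 4485 CPM in control testis, so that GF and FO overlapped and both lay below the control. Complex IV summed to 1852, 1589, 1154 and 1182 CPM in GF, 2649, 2508, 2097 and 1987 in FO and 2309 and 2888 in control testis. All GF libraries thus lay below all FO libraries for complex IV, while FO overlapped the control. Complex V summed to 3884, 3521, 2930.3 and 2962 CPM in GF, 4447, 4418, 4134 and 3877 in FO and 5207 and 6472 in control testis, and only GF 1, by a small margin, reached the lowest FO library. Complex II gave 408, 359, 229 and 329 CPM in GF, 307, 423, 394 and 346 in FO and 502 and 659.8 in control testis. Complex III, with only UQCR10 and UQCRB measured, gave 181, 192, 128 and 146 CPM in GF, 259, 229, 223 and 174 in FO and 385 and 505 in control testis. Both of these complexes were highest in the control libraries, and in both GF overlapped FO.

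**Figure D1:**
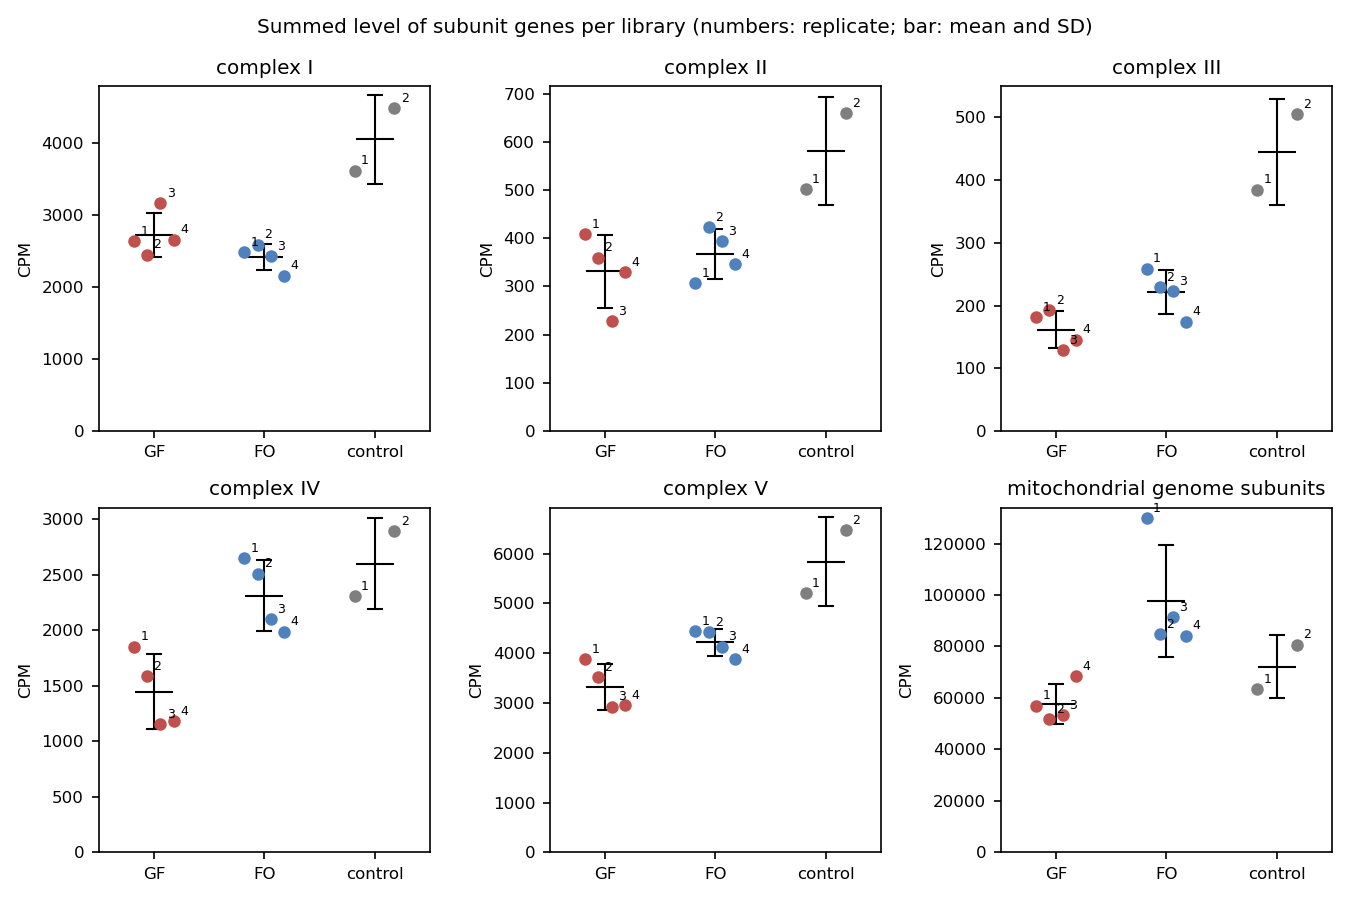
Summed TMM-scaled CPM (vertical axis, from 0) of the measured nuclear genes of each complex, and of the 13 protein genes of the mitochondrial genome, with 1 point per library of GF, FO and control testis (replicate numbers beside the points, bar for mean and SD). The complex V sum includes ATP5S and ATP5SL, which are no subunits. Complex IV separates GF (1154 to 1852 CPM) from FO (1987 to 2649 CPM), and control testis lies above both graft groups for complexes I, II, III and V.

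NDUFV3, an accessory subunit of the NADH-oxidising arm, alone made up 10.4, 10.8, 24.2 and 26.7% of the complex I sum in GF 1 to GF 4, 4.23, 4.93, 6.40 and 4.34% in FO 1 to FO 4, and 6.25 and 5.81% in control testis. Without NDUFV3 and NDUFA10, the sum was 2288, 2092, 2038 and 1728 CPM in GF, 2347, 2431, 2236 and 2032 in FO, and 3319 and 4151 in control testis. On that sum the mean of GF (2036 CPM) was below that of FO (2261 CPM) and their libraries overlapped, whereas with these genes the mean of GF was the higher one. For complex IV, the sum without COX6C and COX7C was 1039.9, 1001, 814 and 879.5 CPM in GF, 1041, 1155, 1072 and 955 in FO, and 1335 and 1704 in control testis, and on it GF and FO overlapped. The genes left out of these sums were chosen after their values were seen.

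The GF libraries differed among themselves far more than the FO libraries did. The highest library was more than 2-fold over the lowest for 41 of the 67 genes in GF, for 1 gene in FO and for 0 in control testis. The control has only 2 libraries, and the same count over all genes is not given here. On the first principal component, GF ran from -34.4 to -156.1 and FO from 59.2 to 85.0, so GF was uneven over other genes too. GF 3 and GF 4 were both below GF 1 and GF 2 for 37 genes and both above them for 12. NDUFS1, the largest core subunit of complex I, had 50.4, 31.2, 2.76 and 9.33 CPM in GF 1 to GF 4, against 40.7, 38.7, 36.3 and 34.1 CPM in FO and 57.4 and 60.7 CPM in control testis. SDHB, the iron-sulfur subunit of complex II, had 44.8, 34.1, 4.49 and 15.2 CPM in GF, 41.8, 52.9, 40.3 and 40.7 in FO and 57.5 and 73.9 in control testis. In both genes GF 1 and GF 2 stood at or near the FO level while GF 3 and GF 4 were far below it, and neither passed the test of GF against FO (edgeR adjusted p = 0.418 and 0.229). NDUFB7, an accessory subunit of the membrane arm, showed the opposite order, with 51.7, 46.4, 226 and 131 CPM in GF, 50.2, 37.2, 49.7 and 46.8 in FO and 44.4 and 47.4 in control testis. Set against the FO mean, the median difference over the tested genes was 0.05 and -0.19 on the log2 scale in GF 1 and GF 2, and -0.60 and -0.65 in GF 3 and GF 4. Sertoli cell genes were also uneven within GF, at 14627, 16634, 40251 and 45402 CPM in GF 1 to GF 4, and whether this has a part in the spread was not tested.

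**Figure D2:**
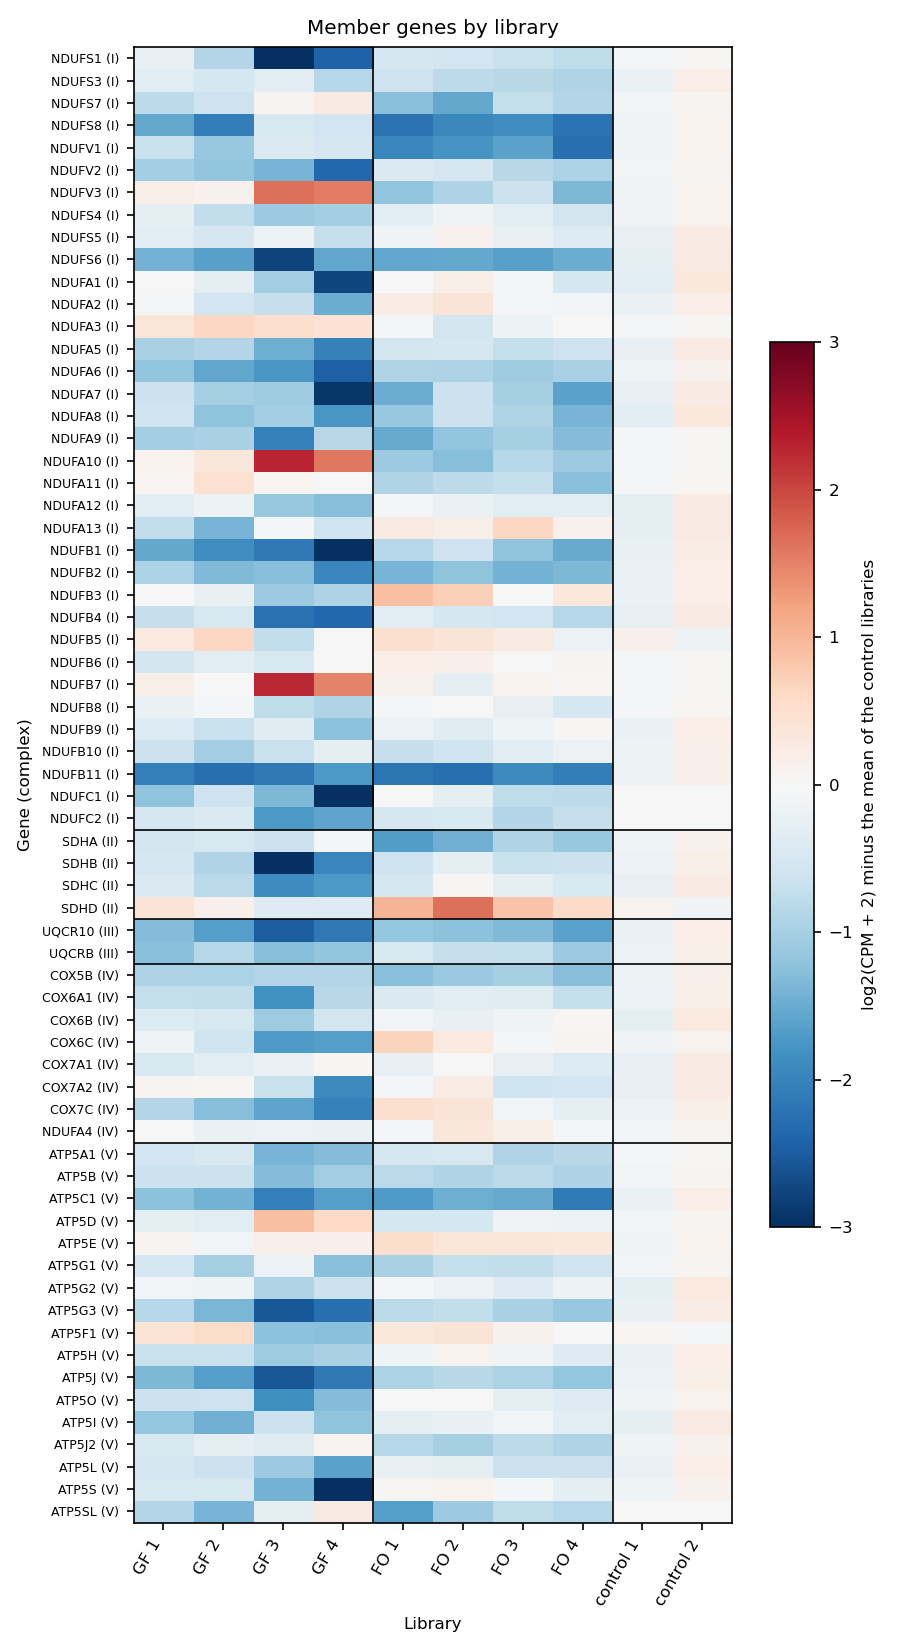
Level of 66 of the 67 genes (one line per gene, grouped by complex) in each library (columns), as log2(CPM + 2) minus the mean of the control libraries, with red above and blue below the control on a scale cut at -3 and 3. NDUFV3, NDUFA10 and NDUFB7 are red in GF 3 and GF 4, where most other genes are blue, and NDUFB11 is blue in all graft libraries.

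The first comparison, GF against FO, asks what the presence of germ cells went with in the grafts. Of 66 genes tested, 10 were higher and 9 lower in GF at an adjusted p under 0.05 (edgeR quasi-likelihood test, Benjamini-Hochberg over all genes), and 47 did not pass. Over all 13782 genes tested in this comparison, 30.5% were called, 17.6% higher and 13.0% lower, so 19 of 66 is near the background. The higher genes were 8 of complex I, SDHA of complex II and ATP5J2 of complex V, and the lower genes were 3 of complex I, 2 of complex IV and 4 of complex V. The median log2 fold change of the 66 genes was -0.28, against -0.020 for all genes, with 18 genes above 0 and 48 below. Scaling by total counts alone, which moves the median of all genes from -0.020 to 0.13, gave 10 higher and 2 lower, COX7C and ATP5I, and a median of -0.13; under it NDUFA13, NDUFB1, NDUFB3, COX6C, ATP5H, ATP5J and ATP5O kept a value below 0 and did not pass. Without GF 3 and GF 4 the median was -0.081.

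The number of calls changed when single libraries were left out. Such fits also rest on fewer libraries, and their losses over all called genes are not given here. Of the 19 called genes, 18 were still called without GF 1, 17 without GF 2, 13 without GF 3, 10 without GF 4, 6 without FO 1, 6 without FO 2, 10 without FO 3 and 12 without FO 4. Only NDUFV1, NDUFV3, NDUFA10, NDUFA11, COX7C and ATP5I passed in all 8 of these fits. Without GF 3 and GF 4 together, 15 of the 19 remained, and NDUFS7, NDUFS8, NDUFB7 and ATP5O did not. Without FO 1 and GF 3, the libraries with muscle transcripts, 7 remained, namely these 6 genes and NDUFA13. Replicate ranges did not overlap for 8 higher and 15 lower genes, against 17.8% and 18.2% of all genes tested.

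Of 7 core subunits of complex I, 3 were higher in GF and the others did not pass. Of all genes tested, 30.5% were called, 17.6% higher. NDUFV1, which binds NADH and the flavin and so receives the first electrons, lies at chr2:4958508-4964211 in the build Sscrofa11.1. It had 64.7, 46, 76.6 and 72.6 CPM in GF 1 to GF 4, 25.4, 29.1, 32.7 and 19.9 CPM in FO 1 to FO 4, and 96.3 and 112 CPM in control testis. The 3 groups were fully apart, with FO lowest and control testis highest. The log2 fold change of GF over FO was 1.28 ± 0.27 (adjusted p = 0.00408), and 1.03 without GF 3 and GF 4. NDUFS7, which carries the last iron-sulfur cluster before ubiquinone, had 53.8, 60.5, 99.4 and 112 CPM in GF, against 38.2, 31.1, 55.8 and 49.8 CPM in FO. NDUFS8, which carries neighbouring clusters, had 79.5, 54, 167 and 157 CPM in GF, against 48.8, 59.8, 62.9 and 48.9 CPM in FO. In each gene 1 GF library, GF 1 for NDUFS7 and GF 2 for NDUFS8, lay within the FO range, and GF 3 and GF 4 were well above it. Their log2 fold changes were 0.90 ± 0.30 for NDUFS7 (adjusted p = 0.0422) and 1.06 ± 0.35 for NDUFS8 (0.0359), and 0.37 and 0.26 without GF 3 and GF 4, which did not pass. The highest adjusted p on leaving out 1 library was 0.119 without FO 2 for NDUFS7 and 0.0988 without GF 3 for NDUFS8. Among the other core subunits, NDUFS1, NDUFS3 and NDUFV2 had log2 fold changes of -0.66, 0.31 and -0.76 (adjusted p = 0.418, 0.3003 and 0.0699).

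Of the 29 accessory subunits of complex I, 5 were higher and 3 lower in GF. These are 17.2% and 10.3%, near the 17.6% and 13.0% of all genes tested. NDUFA10, an accessory subunit at chr15:138999174-139031892, had 77.2, 91.3, 359 and 220.2 CPM in GF 1 to GF 4, 32.6, 28.5, 39 and 32.6 CPM in FO 1 to FO 4, and 70.6 and 73.6 CPM in control testis. All GF libraries were above all others, GF 1 and GF 2 only just above the control and GF 3 and GF 4 far above it. This was the largest change of the set, a log2 fold change of 2.503 ± 0.45 (adjusted p = 0.00191), and 1.33 (adjusted p = 0.000221) without GF 3 and GF 4. NDUFV3, at chr13:206111337-206123987, had 274, 264, 767 and 708 CPM in GF, 105, 127, 155 and 93.7 in FO and 226 and 261 in control testis, the same order of groups. It was higher in GF with a log2 fold change of 2.07 ± 0.38 (adjusted p = 0.0021), and by 1.15 without GF 3 and GF 4. NDUFA11, a membrane-embedded accessory subunit, had 59.8, 79.4, 60.1 and 57.7 CPM in GF, 30.1, 32.8, 34.2 and 23.1 in FO and 54.9 and 60.4 in control testis. GF stood above FO in every library and overlapped the control, with a log2 fold change over FO of 1.10 ± 0.24 (adjusted p = 0.00509).

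NDUFA3, another accessory subunit, was similar, at 62.6, 75.1, 68.7 and 65.7 CPM in GF, 46.5, 32.2, 43 and 47.9 in FO and 46.7 and 49.3 in control testis. All GF libraries were above all others, and the log2 fold change over FO was 0.68 ± 0.22 (adjusted p = 0.0361, at most 0.112 without FO 2). NDUFB7, whose values are given above, had a log2 fold change of 1.32 ± 0.45 (adjusted p = 0.0435), which was 0.72 without GF 3 and 0.082 without GF 3 and GF 4. GF 1 and GF 2 lay close to FO, and only GF 3 and GF 4 stood well above it. Among the lower genes, NDUFA13, an accessory subunit also known as GRIM-19, had 25.7, 15.7, 43.2 and 28.7 CPM in GF, 53.5, 50.5, 68.8 and 48.3 in FO and 36.4 and 53.8 in control testis. NDUFB1, a small membrane arm subunit, had 62.8, 49.3, 40.4 and 18.7 CPM in GF, 102, 120.5, 78.9 and 63.8 in FO and 158 and 219 in control testis. In both genes every GF library was below every FO library, and NDUFB1 in FO was in turn below the control. The log2 fold change was -0.97 ± 0.31 for NDUFA13 (adjusted p = 0.0354, at most 0.108 without FO 3) and -1.09 ± 0.34 for NDUFB1 (adjusted p = 0.031, at most 0.101 without FO 2), and -0.71 for NDUFB1 without GF 3 and GF 4. NDUFA13 did not pass in 7 of the fits that left out 1 library, all but that without GF 3. NDUFB3, of the same arm, had 69.7, 59.8, 31.8 and 36 CPM in GF and 133, 116, 69.4 and 87.3 in FO, overlapping by a fraction of a CPM, with 60.8 and 79.6 in control testis. It was lower in GF by a log2 fold change of -1.04 ± 0.31 (adjusted p = 0.0233, at most 0.087 without FO 1), which was -0.65 without GF 3 and GF 4.

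In complex II, 1 of the 3 tested subunits was called, where 30.5% of all genes tested were. SDHA, the flavoprotein that oxidises succinate, lies at chr16:79838442-79862956 and had 162, 169, 152 and 233 CPM in GF 1 to GF 4, 73.3, 86.6, 126 and 106 CPM in FO 1 to FO 4 and 215 and 261 CPM in control testis. GF was above FO in every library, and GF 4 reached into the control range. Its log2 fold change over FO was 0.87 ± 0.24 (adjusted p = 0.018, at most 0.0629 without FO 1). SDHC, a membrane anchor of the same complex, had 200.2, 155, 71.8 and 80.6 CPM in GF, 188, 277, 225 and 197 in FO and 228 and 324 in control testis, and did not pass (-0.81 ± 0.32, adjusted p = 0.0722), although DESeq2 called it lower. SDHD, the other anchor, was counted at most 29 times in any library and did not pass the filter on low counts; DESeq2, which used another filter, called it lower in GF. In complex III, UQCR10 and UQCRB had log2 fold changes of -0.51 ± 0.27 and -0.41 ± 0.22, with adjusted p of 0.174 and 0.17; neither was called by edgeR, by DESeq2 or at an unadjusted p under 0.05.

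In complex IV only lower calls were made. Of 8 genes tested, 2 were lower and 6 did not pass. The count of higher genes was 0 by edgeR, by DESeq2 and at an unadjusted p under 0.05. Over all genes tested 30.5% were called, 17.6% higher and 13.0% lower, so 2 calls of 8 are near the background. COX7C, a small membrane subunit at chr2:94345436-94347709, had 252, 191, 154 and 112 CPM in GF 1 to GF 4, 647, 613, 437 and 386 CPM in FO 1 to FO 4 and 410.0 and 530.5 CPM in control testis. GF was below FO and below control testis in every library, while FO and the control overlapped. The log2 fold change over FO was -1.55 ± 0.28 (adjusted p = 0.00196), and -1.24 without GF 3 and GF 4. COX6C, likewise a membrane subunit, had 559, 398, 186 and 190.2 CPM in GF, 961, 739.5, 588 and 646 in FO and 563 and 654 in control testis, with no overlap between GF and FO. Its log2 fold change was -1.14 ± 0.34 (adjusted p = 0.0261, at most 0.0915 without FO 1), and -0.63 without GF 3 and GF 4. COX5B, a subunit on the matrix side, was higher in every GF library without passing, at 326, 324, 340.0 and 339.5 CPM in GF and 262, 290.4, 311 and 258 in FO (log2 fold change 0.25 ± 0.19, adjusted p = 0.328).

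In complex V, 3 of the 4 genes of the peripheral stalk were lower in GF, and the 5 genes of the catalytic head and the 3 genes of the c ring did not pass. Over all genes tested 30.5% were called, 13.0% lower, and complex V, with 5 of 17 called, is near this share. Groups of 3 to 5 genes are too small to be told apart by such counts. ATP5J, coupling factor 6 of the stalk, lies at chr13:189281429-189290234 and had 310.1, 251, 131 and 177 CPM in GF 1 to GF 4, 407, 446, 409 and 353 CPM in FO 1 to FO 4 and 704 and 886 CPM in control testis. The groups followed each other without overlap, GF lowest and control testis highest. ATP5H, subunit d, had 58.5, 58.5, 43.5 and 47 CPM in GF, 85.3, 101, 87.5 and 71.2 in FO and 81.6 and 108 in control testis. ATP5O, the oligomycin sensitivity-conferring protein, had 152, 155, 65.2 and 94.7 CPM in GF, 239, 234, 198 and 182 in FO and 221 and 256 in control testis. In both of these GF was below every other library, and FO overlapped the control. The log2 fold changes of GF over FO were -0.90 ± 0.26 for ATP5J, -0.73 ± 0.22 for ATP5H and -0.87 ± 0.28 for ATP5O (adjusted p = 0.0226, 0.0249 and 0.0323). Leaving out 1 library raised these adjusted p to at most 0.067 without FO 2, 0.0923 without FO 2 and 0.0963 without FO 1. Without GF 3 and GF 4 the log2 fold changes were -0.54 for ATP5J, -0.57 for ATP5H and -0.49 for ATP5O, of which ATP5O did not pass (adjusted p = 0.0504), and without FO 1 and GF 3 none of the 3 passed (adjusted p = 0.0871, 0.0895 and 0.129). ATP5F1, subunit b and the remaining stalk gene, had 211, 235, 66.6 and 65 CPM in GF and 199, 207, 174 and 159 in FO, with GF 1 and GF 2 above and GF 3 and GF 4 below all FO libraries (adjusted p = 0.51).

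Among the membrane accessory subunits of complex V, ATP5I was lower and ATP5J2 higher in GF. ATP5I, subunit e, had 187, 153, 265 and 180.5 CPM in GF, 338, 359, 394 and 332 in FO and 345 and 505 in control testis, so that GF lay below all others. ATP5J2, subunit f, had 261, 301, 282 and 382 CPM in GF, 199, 179, 208 and 193 in FO and 333 and 394 in control testis, with GF above FO in every library. Their log2 fold changes were -0.85 ± 0.22 for ATP5I (adjusted p = 0.0136) and 0.66 ± 0.20 for ATP5J2 (adjusted p = 0.029, at most 0.0857 without FO 2). ATP5A1 and ATP5B, the alpha and beta subunits that form the catalytic sites, had 144 ± 46.1 and 190.3 ± 41 CPM in GF, against 167 ± 25.5 and 194 ± 8.64 CPM in FO (SD, n = 4); these genes did not pass (adjusted p = 0.535 and 0.937).

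**Figure D3:**
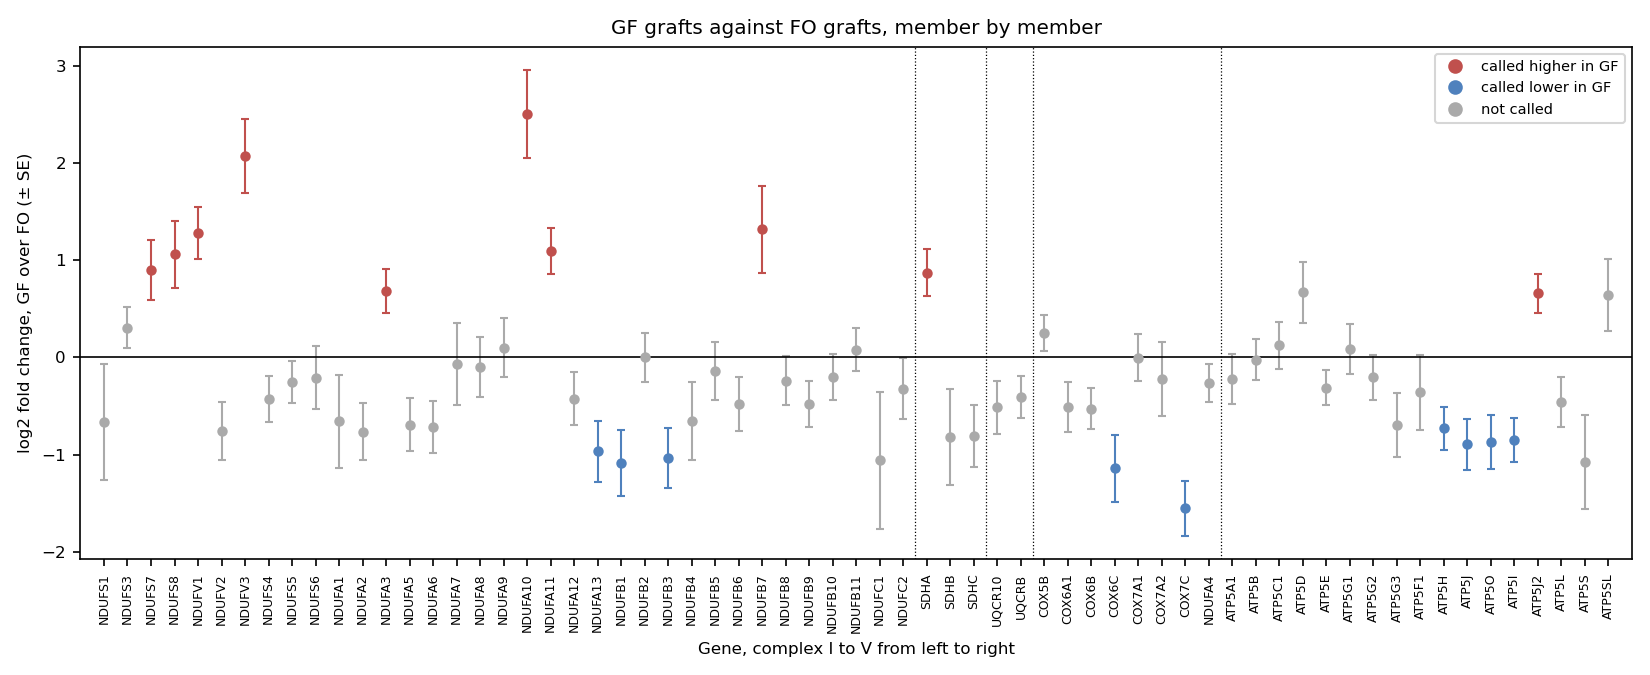
Log2 fold change of GF over FO (vertical axis, bars for SE) for 65 of the 66 tested genes, ordered by complex from left to right, with called genes in red (10 higher) and blue (9 lower). NDUFA10 has the highest value and COX7C the lowest, and most genes in grey lie a little below 0.

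Markers that moved with this comparison were the germ cell, Sertoli cell and fibroblast genes, whose ranges are given above, and smooth muscle and peritubular genes, at 545 to 729 CPM in GF and 162 to 248 in FO over 4 genes. Macrophage genes summed to 18 to 30.6 CPM in GF and 52.9 to 179 in FO over 5 genes, and endothelial genes to 24.2 to 50.4 CPM in GF and 86 to 149 in FO over 4. These are pig genes, and host mouse cells of these types were not measured separately. The part of these markers in the differences between the respiratory chain genes was not tested.

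GF against control testis asks how far the tissue grown from germ cells and fibroblasts stands from testis. All 67 genes were tested, and 25 were lower in GF and 42 did not pass, where 25.8% of the 15877 genes tested were called, 14.0% higher and 11.8% lower. By edgeR 0 genes were higher, 3 were at an unadjusted p under 0.05 (NDUFV3, NDUFA10 and NDUFB7), and DESeq2 called 2 of these, NDUFA10 and NDUFB7. The median log2 fold change was -0.86, against 0.031 for all genes, with 58 of 67 genes below 0. Ranges did not overlap for 41 lower and 3 higher genes, against 25.3% and 21.9% of all genes. The control group has 2 libraries, and their weight was large: without control 1, 16 of the 25 calls remained, and without control 2 only NDUFA6, NDUFB1, NDUFB11, UQCR10, ATP5C1 and ATP5J did. Without GF 3 and GF 4, 37 genes were lower, all 25 among them. With only the 6 libraries compared in the fit, 16 were lower. Without FO 1 and GF 3, 22 of the 25 remained, and SDHC, ATP5A1 and ATP5L did not.

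NDUFB11 was far below the control in both kinds of graft and did not pass between them (log2 fold change 0.080 ± 0.22 for GF over FO, adjusted p = 0.806). The gene, a membrane arm accessory subunit at chrX:41770929-41773879, had 69, 59.8, 64.6 and 88.2 CPM in GF 1 to GF 4, 62.2, 60.03, 76.1 and 68.2 CPM in FO 1 to FO 4 and 264 and 326 CPM in control testis. Every graft library was far below both control libraries, and GF and FO overlapped. Its log2 fold change was -2.07 ± 0.23 for GF over control testis (adjusted p = 8.59e-05) and -2.14 ± 0.23 for FO over control testis (adjusted p = 6.03e-05), both from edgeR. RBM10, an RNA-binding protein gene that overlaps NDUFB11 on the X chromosome, had log2 fold changes of -0.74 ± 0.23 and -1.30 ± 0.23 in these comparisons (adjusted p = 0.0331, at most 0.196 without control 1, and 0.00186). Whether counting used strand is not known here, and reads of the 2 genes may be mixed.

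In all, 10 of 36 subunits of complex I were lower in GF than in control testis, where 11.8% of all genes tested were. NDUFV2, the iron-sulfur partner of NDUFV1, had a log2 fold change of -1.44 ± 0.32 (adjusted p = 0.0062, at most 0.0754 without control 2). NDUFA6, an accessory subunit of the peripheral arm, had 79.9, 60.5, 53.5 and 32.2 CPM in GF, 96.7, 96.1, 86.6 and 93 in FO and 166 and 202 in control testis, the 3 groups standing apart from each other. Its log2 fold change against the control was -1.70 ± 0.29 (adjusted p = 0.00126). NDUFS6, an accessory subunit that binds zinc, had 29.6, 25.3, 10.4 and 26.6 CPM in GF, 26.5, 27.2, 25.2 and 27.8 in FO and 67.3 and 100.03 in control testis. All graft libraries were far below both control libraries and GF 3 was lowest, with a log2 fold change of -1.86 ± 0.35 (adjusted p = 0.00215, at most 0.0601 without control 2). NDUFB1, with values above, was lower with a log2 fold change of -2.13 ± 0.38 (adjusted p = 0.00151). NDUFA5, NDUFA8, NDUFA9 and NDUFB2 were also called, with log2 fold changes of -1.32, -1.17, -1.20 and -1.38, and without control 2 none of these 4 passed. NDUFA10, NDUFB7 and NDUFV3 lay on the other side, at 1.37 ± 0.51, 1.30 ± 0.53 and 1.05 ± 0.43, and did not pass (adjusted p = 0.0635, 0.0862 and 0.0902). Without GF 3 and GF 4 these 3 values were 0.22, 0.082 and 0.13.

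Both measured subunits of complex III were lower in GF than in control testis, where 11.8% of all genes tested were. UQCR10, a small subunit, had 86.4, 67.2, 36.9 and 46.7 CPM in GF, 95.1, 90.9, 84.7 and 68.7 in FO and 185 and 248 in control testis. UQCRB, a subunit near the ubiquinone site, had 94.5, 125, 91.5 and 98.9 CPM in GF, 164, 139, 138 and 106 in FO and 199 and 257 in control testis. In both genes all graft libraries were below both control libraries, and GF overlapped FO. The log2 fold changes of GF were -1.86 ± 0.31 for UQCR10 (adjusted p = 0.000934) and -1.15 ± 0.24 for UQCRB (adjusted p = 0.00443, at most 0.0927 without control 2). SDHC was the complex II gene called here, at -1.12 ± 0.36 (adjusted p = 0.0375, at most 0.31 without control 2; -0.65 without GF 3 and GF 4), and SDHA, at -0.41 ± 0.27, was not (adjusted p = 0.28).

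Of 8 complex IV genes 3, and of 17 complex V genes 9, were lower in GF than in control testis, where 11.8% of all genes tested were. COX5B had 566 and 692 CPM in control testis, which no graft library reached, and its log2 fold change was -0.92 ± 0.21 (adjusted p = 0.00603, at most 0.118 without control 2). COX7C was lower with a log2 fold change of -1.40 ± 0.31 (adjusted p = 0.00571, at most 0.0897 without control 2) and COX6A1 at -0.98 ± 0.29 (adjusted p = 0.0252, at most 0.229 without control 2). ATP5C1, the gamma subunit that turns inside the catalytic head, lies at chr10:63584288-63599537 and had 129, 112, 71.8 and 95.1 CPM in GF 1 to GF 4, 92.5, 108, 106 and 68.9 CPM in FO 1 to FO 4 and 264 and 349.8 CPM in control testis. GF and FO shared a range, far below both control libraries. The log2 fold change of ATP5C1 was -1.59 ± 0.27 (adjusted p = 0.00128), that of ATP5J -1.87 ± 0.29 (0.000699) and that of ATP5I -1.11 ± 0.26 (0.0068, at most 0.149 without control 2). ATP5A1, ATP5B, ATP5G3, ATP5H, ATP5L and ATP5O were the other complex V genes called, with log2 fold changes from -1.62 for ATP5G3 to -0.86 for ATP5H, and none of these 6 passed without control 2. The log2 fold changes of ATP5A1, ATP5L and ATP5O were -0.55, -0.60 and -0.65 without GF 3 and GF 4. ATP5E and ATP5D, the epsilon and delta subunits of the head, were above 0, at 0.076 ± 0.21 and 0.32 ± 0.36, and did not pass.

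FO against control testis, the same question for grafts without germ cells, uses the same 2 control libraries, so its values stand beside those of GF and are no second test of them. Of 67 genes tested, 19 were lower in FO and 48 did not pass, where 18.7% of all genes tested were called, 8.12% higher and 10.6% lower. The count of higher genes was 0 by edgeR, by DESeq2 and at an unadjusted p under 0.05. The median log2 fold change was -0.58, against -0.036 for all genes, and 55 of 67 genes were below 0. Ranges did not overlap for 39 lower and 2 higher genes, against 32.0% and 26.7% of all genes. This count moved with the libraries in the fit: without GF 3 and GF 4, which are not in this comparison but share its fit, 35 genes were lower and 2 higher, and with only the 6 libraries compared in the fit 34 were lower and 1 higher. Without control 2, 4 of the 19 calls remained (NDUFS8, NDUFV1, NDUFB11 and ATP5C1), and without control 1, 10. Without FO 1 and GF 3, 16 of the 19 remained, and NDUFS7, NDUFA6 and NDUFA8 did not.

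In FO, 5 of 7 core subunits of complex I were lower than in control testis, where 10.6% of all genes tested were. NDUFS8 had 48.8, 59.8, 62.9 and 48.9 CPM in FO and 220.4 and 252 CPM in control testis, a log2 fold change of -2.10 ± 0.37 (adjusted p = 0.00163). NDUFV1 followed at -1.96 ± 0.28 (adjusted p = 0.000372). NDUFS7 and NDUFS3 were also lower, with log2 fold changes of -1.10 ± 0.33 and -0.81 ± 0.24 (edgeR adjusted p = 0.0327 and 0.0334). With 1 library left out, these ran from -1.24 to -0.96 and from -1.01 to -0.60. The call of NDUFS7 did not hold without FO 1, FO 2 or FO 4. NDUFS3, and NDUFA6 and NDUFA8 named below, did not pass on leaving out any single FO library. For all 7 core genes every FO library was below both control libraries, which held for 32.0% of all genes tested. In GF, NDUFV1 and NDUFS8 had log2 fold changes against the control of -0.68 ± 0.28 and -1.05 ± 0.37, which did not pass (adjusted p = 0.0879 and 0.0513), and the direct test of GF against FO, given above, called both higher in GF. NDUFB2, an accessory subunit, was low in both kinds of graft, with 63.4, 48.4, 50.4 and 30.4 CPM in GF, 46.3, 53.1, 45.7 and 48.1 in FO and 108 and 144 in control testis. Its log2 fold changes against the control were -1.38 ± 0.28 in GF and -1.38 ± 0.28 in FO (adjusted p = 0.0034 and 0.00413), and neither passed without control 2. NDUFS6, NDUFA6, NDUFA8, NDUFA9 and NDUFA11 were complex I genes also called, from -1.65 for NDUFS6 to -0.94 for NDUFA11, and none of these 5 passed without control 2.

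Outside complex I, 7 genes were lower in FO than in control testis, where 10.6% of all genes tested were. SDHA had a log2 fold change of -1.28 ± 0.27 (adjusted p = 0.00485, at most 0.0861 without control 2) and UQCR10 of -1.35 ± 0.31 (adjusted p = 0.00834, at most 0.138 without control 2). COX5B was lower with a log2 fold change of -1.17 ± 0.21 (adjusted p = 0.00172, at most 0.0575 without control 2) and was the single complex IV gene called. In complex V, ATP5C1 was lower with a log2 fold change of -1.71 ± 0.27 (adjusted p = 0.000869), ATP5J at -0.98 ± 0.30 (0.0347, at most 0.299 without control 2), ATP5J2 at -0.90 ± 0.22 (0.0135, at most 0.179 without control 2) and ATP5B at -0.87 ± 0.24 (0.0209, at most 0.207 without control 2). The call of ATP5J did not hold on leaving out any single FO library. COX7C and COX6C, which were low in GF, had log2 fold changes of 0.15 and 0.27 in FO, and neither passed (adjusted p = 0.803 and 0.699). SDHD had 1.5, 0.903, 0 and 0 CPM in GF, 3.34, 6.31, 2.73 and 1.91 in FO and 0.824 and 0.453 in control testis, at most 29 counts in any library, and did not pass in either comparison with the control.

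**Figure D4:**
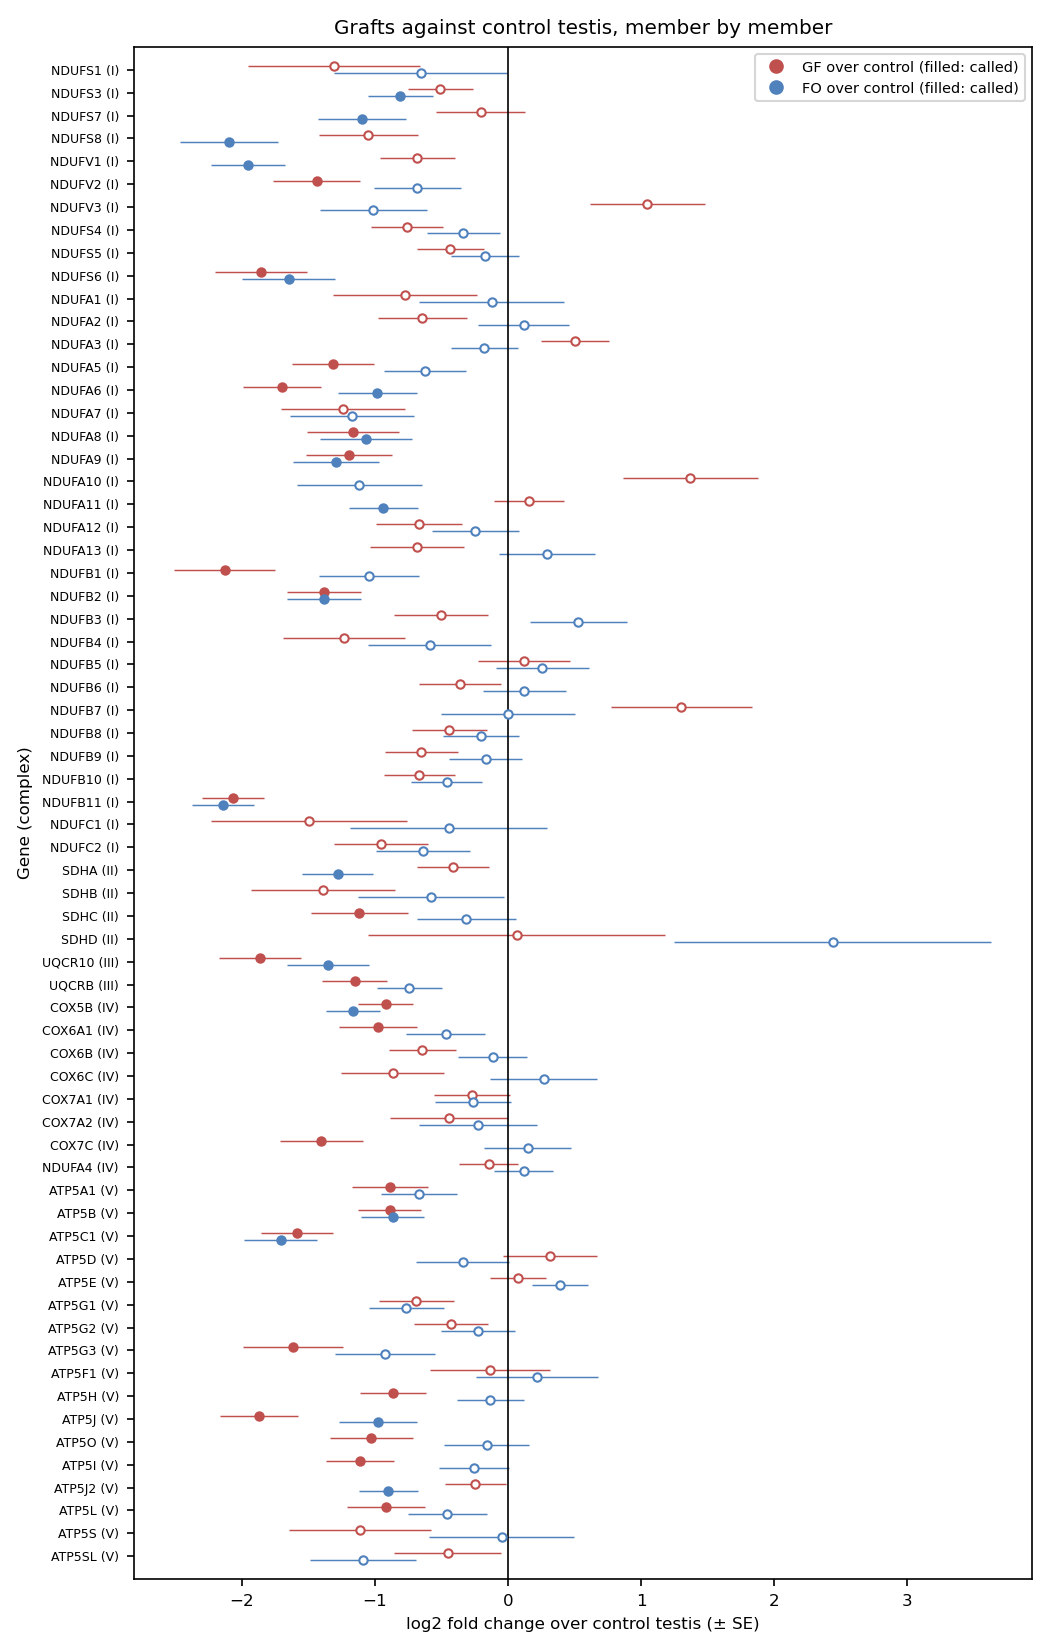
Log2 fold change over control testis (horizontal axis, bars for SE) of 66 of the 67 genes in GF (red) and FO (blue), with called genes filled, from complex I at the top to complex V at the bottom. All filled points lie left of 0; both groups are set against the same 2 control libraries.

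**Figure D5:**
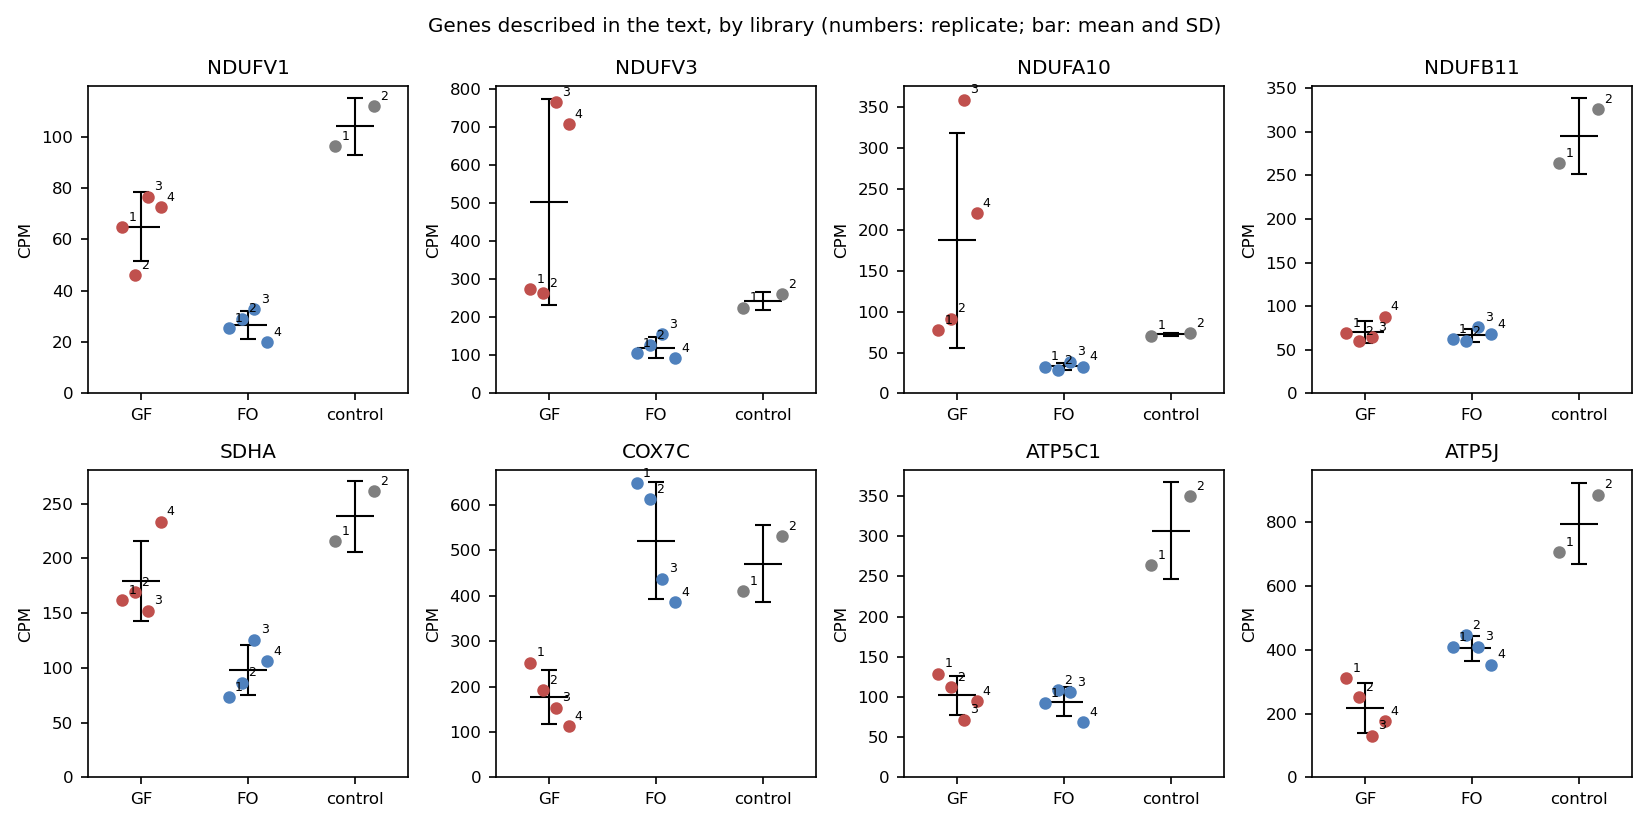
TMM-scaled CPM (vertical axes, from 0) of 8 genes in each library of GF, FO and control testis, with replicate numbers beside the points and bars for mean and SD. FO is lowest for NDUFV1, NDUFV3, NDUFA10 and SDHA, GF is lowest for COX7C and ATP5J, and GF and FO overlap below the control for NDUFB11 and ATP5C1.

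Of the markers, Leydig cell genes, given above, were lower in both kinds of graft than in control testis, as were erythroid genes, which summed to 0 to 3.21 CPM in GF, 1.74 to 31.4 in FO and 3134 to 3995 in control testis over 2 genes. Macrophage genes summed to 399 to 425 CPM and endothelial genes to 203 to 206 CPM in control testis, above all graft libraries. The table lists pig genes, and blood, macrophage and endothelial cells of the host mouse were not measured separately. Adipocyte genes were the other way, at 17.7 to 60.8 CPM in GF, 21.8 to 62.1 in FO and 6.43 to 8.91 in control testis over 4 genes, of which ADIPOQ and PLIN1 were at 0 in both control libraries. Smooth muscle and peritubular genes, at 289 to 340.0 CPM in control testis, lay below GF and above FO, and Sertoli cell genes, given above, were higher in GF than in control testis. Their part in the lower level of respiratory chain genes in grafts was not tested. With mitochondrial and haemoglobin genes left out before scaling, the same 25 genes in GF and the same 19 in FO were lower.

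Several subunits exist in a common and a tissue-restricted form, and the ratio within such a pair does not depend on scaling. COX7A1, the form of subunit 7A known from heart and skeletal muscle, made up 13.9, 15.8, 25.2 and 49.4% of COX7A1 and COX7A2 counts together in GF 1 to GF 4, 17.3, 17.2, 23.6 and 21.2% in FO 1 to FO 4, and 19.5 and 19.8% in control testis. GF 4, which stood apart, had the lowest COX7A2 level of GF (178, 172, 104 and 42.9 CPM in GF 1 to GF 4) and the highest COX7A1 level (28.7, 32.3, 35.2 and 41.8 CPM). FO 1 and GF 3, which carried skeletal muscle transcripts, had COX7A1 levels of 34 and 35.2 CPM, inside the range of the others. Neither gene passed in any comparison. COX6A1, the common form of subunit 6A, had 181, 178, 83.2 and 166 CPM in GF, 222, 234, 231 and 179.9 in FO and 265 and 334 in control testis, with GF 3 low; the muscle form was not analysed here. COX6B, which faces cytochrome c, had 147, 139, 92.9 and 133 CPM in GF and 185, 168, 183 and 203 in FO. All GF libraries were below all FO libraries, yet the gene did not pass by edgeR (log2 fold change -0.53 ± 0.21, adjusted p = 0.0754) and was called lower by DESeq2. NDUFA4 was nearly even over all libraries, at 179, 155, 159 and 157 CPM in GF, 176, 227, 203 and 172 in FO and 168 and 191 in control testis. COX8H, a gene for a further form of subunit 8 that the name rule did not take in, was counted 2, 5, 0 and 0 times in GF, 40, 17, 5 and 46 times in FO and 0 times in both control libraries; it was called higher in FO than in control testis, and no fold is given.

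ATP5G1, ATP5G2 and ATP5G3 encode the same mature c subunit of complex V, and their mix differed by library. ATP5G3 held 54.7, 49.4, 31.0 and 41.4% of their summed level in GF 1 to GF 4, 58.0, 59.2, 57.7 and 51.1% in FO 1 to FO 4, and 64.4 and 64.9% in control testis. Control testis was thus above every graft library, and GF 3 and GF 4 were lowest. ATP5G3 itself had 491, 344, 149.8 and 185 CPM in GF, 506, 535, 452 and 402 in FO and 767 and 1032 in control testis, with a log2 fold change of GF over control testis of -1.62 ± 0.37 (adjusted p = 0.00712, at most 0.098 without control 2). ATP5G1 had 150.2, 107, 189.5 and 89.9 CPM in GF, 109.8, 130.1, 128 and 141 in FO and 203 and 229 in control testis. ATP5G2 had 256, 245, 144 and 171 CPM in GF, 257, 238, 204 and 243 in FO and 221 and 329 in control testis. Neither ATP5G1 nor ATP5G2 passed in any comparison.

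The genes are spread over 18 chromosomes, 11 of them on chromosome 2. Of the 67 genes, 19 overlap another gene of the table in the RefSeq annotation of Sscrofa11.1, and their counts are uncertain to the extent that reads of the partner were assigned to them. NDUFA7 overlaps RPS28 and NDUFB10 overlaps RPS2, both ribosomal protein genes with far higher counts; neither NDUFA7 nor NDUFB10 was called in any comparison. The overlap of NDUFB11 with RBM10 is described above, and SDHA, COX6C, ATP5C1 and ATP5J overlap genes with fewer counts. NDUFV3, NDUFA10, NDUFV1, NDUFA11 and COX7C overlap no other gene of the table.

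Of the 13 protein genes of the mitochondrial genome, which encode further subunits, 10 were lower in GF than in FO and 3 did not pass, with a median log2 fold change of -1.06. Of all genes tested, 13.0% were lower. COX1, the catalytic subunit of complex IV, was lower with a log2 fold change of -1.91 ± 0.31 (adjusted p = 0.00108) and ND2, a membrane core subunit of complex I, at -1.59 ± 0.22 (adjusted p = 0.000484). Against control testis, 2 were higher and 2 lower in GF, and 5 were higher in FO, where COX1 stood at 2.49 ± 0.39 (adjusted p = 0.00075). Of all genes tested, 14.0% were higher and 11.8% lower in GF, and 8.12% higher in FO. Counts on these 13 genes were 6.36, 6.38, 7.02 and 9.42 times the counts on the 67 nuclear genes in GF 1 to GF 4, 12.8, 8.34, 9.84 and 9.86 times in FO 1 to FO 4, and 5.28 and 5.38 times in control testis. Both control libraries had the lowest ratios, and GF and FO overlapped through GF 4 and FO 2. Mitochondrial transcripts carry short polyA tails, and these ratios compare counts, not amounts of RNA.

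Assembly factors, which build the complexes without staying in them, had 8 of 29 tested genes higher and 1 lower in GF than in FO. Over all genes tested 30.5% were called, 17.6% higher and 13.0% lower, so 9 calls of 29 are near the background. ATPAF2, a chaperone of the complex V head, was higher with a log2 fold change of 2.27 ± 0.39 (adjusted p = 0.00153), SDHAF2, which helps flavin attach to SDHA, at 1.32 ± 0.31 (adjusted p = 0.00731) and COX10, an enzyme of complex IV haem synthesis, at 1.97 ± 0.49 (adjusted p = 0.0109). PET117, a complex IV assembly factor, was higher with a log2 fold change of 3.90 ± 0.74 (adjusted p = 0.00244), with 3.01 without GF 3 and 1.88 without GF 3 and GF 4. The log2 fold changes of SDHAF2 and COX10 were 0.81 and 1.32 without GF 3 and GF 4, and without FO 1 and GF 3 neither passed (adjusted p = 0.0526 and 0.0674). Against control testis 3 were higher and 2 lower in GF, and 1 was higher and 4 lower in FO, of 30 tested. Of all genes tested, 25.8% were called in GF and 18.7% in FO, so 5 calls of 30 are not above either share. These shares also stand beside the counts of electron carriers against control testis that follow. Of electron carriers and partner proteins, 2 of 16 were higher in GF than in FO, COQ3 of ubiquinone synthesis among them (0.94 ± 0.27, adjusted p = 0.0224, at most 0.0612 without FO 4, and 0.0841 without FO 1 and GF 3), and against control testis 4 of 17 were lower in GF, and 1 was higher and 2 lower in FO; CYCS, cytochrome c itself, was lower than in control testis with a log2 fold change of -0.76 ± 0.23 in GF and -0.82 ± 0.23 in FO (adjusted p = 0.0246 and 0.0218), and neither passed without control 1 or without control 2 (at most 0.254 without control 2 and 0.269 without control 2).

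The next 18 genes are of the tricarboxylic acid cycle, which feeds the chain, together with genes of pyruvate dehydrogenase, such as PDHB and PDHX. Of these 18, 9 were lower in GF and 6 in FO than in control testis, with median log2 fold changes of -0.86 and -0.82. Of all genes tested, 11.8% were lower in GF and 10.6% in FO. OGDH, a subunit of the 2-oxoglutarate dehydrogenase complex, was lower with a log2 fold change of -1.46 ± 0.29 in GF and -2.01 ± 0.29 in FO (adjusted p = 0.00318 and 0.000438), and the call in GF did not hold without control 2 (adjusted p = 0.0695). Between the grafts, 1 of the 18 was higher and 1 lower in GF, where 30.5% of all genes tested were called. IDH3G, of the NAD-dependent isocitrate dehydrogenase, was higher with a log2 fold change of 1.30 ± 0.31 (adjusted p = 0.00897). DLST, of the 2-oxoglutarate dehydrogenase complex, was lower with a log2 fold change of -2.09 ± 0.71 (adjusted p = 0.0434, at most 0.112 without FO 3). DLST had few counts, with a mean of 1.51 CPM in GF and 6.78 in FO. It did not pass in 6 of the fits that left out 1 library. IDH3G was at 0.83 without GF 3 and GF 4, and without FO 1 and GF 3 neither gene passed (adjusted p = 0.0645 for IDH3G and 0.14 for DLST).

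Regulators of mitochondrial transcription and biogenesis were called in both directions, 3 of 20 higher and 3 lower in GF than in FO, 2 higher and 3 lower in GF than in control testis, and 1 higher in FO than in control testis. These were 6, 5 and 1 calls of 20, where 30.5, 25.8 and 18.7% of all genes tested were called. PPARGC1A, a coactivator known to drive respiratory chain genes, was lower in GF with a log2 fold change of -2.38 ± 0.43 (adjusted p = 0.00196), and was higher in FO than in control testis with a log2 fold change of 1.96 ± 0.52 (adjusted p = 0.0179, at most 0.195 without control 2). TFB1M, which modifies mitochondrial ribosomal RNA, was higher in GF than in FO with a log2 fold change of 1.34 ± 0.30 (adjusted p = 0.00579; 0.85 without GF 3 and GF 4), and CHCHD2 was lower with a log2 fold change of -1.03 ± 0.23 (adjusted p = 0.00621). TFAM, which packs and transcribes mitochondrial DNA, was lower in GF than in control testis with a log2 fold change of -1.76 ± 0.57 (adjusted p = 0.0369, at most 0.174 without control 1, and 0.0854 without FO 1 and GF 3).

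Among mitochondrial import and folding genes, HSPD1, the chaperonin of the mitochondrial matrix, was lower than in control testis with a log2 fold change of -3.61 ± 0.35 in GF and -3.01 ± 0.35 in FO (adjusted p = 3.23e-05 and 8.69e-05). TOMM40, the pore of the outer membrane, was lower with a log2 fold change of -2.46 ± 0.29 and -1.98 ± 0.28 (adjusted p = 9.48e-05 and 0.000398). In all, 4 of 22 import genes were lower than in control testis in GF and 8 of 22 in FO, and 3 of 22, TIMM22, TIMM44 and TIMM50 of the inner membrane translocases, were higher in GF than in FO (TIMM22 at an adjusted p of 0.0242, at most 0.0689 without FO 3). Of all genes tested, 11.8% were lower in GF and 10.6% in FO than in control testis. The share higher in GF than in FO was 17.6%.

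Of the mitochondrial ribosome, 12 of 75 tested genes were higher and 3 lower in GF than in FO (median log2 fold change 0.11), and of the cytosolic ribosome 1 of 80 was higher and 55 were lower (median -1.01). Over all genes tested 30.5% were called, 17.6% higher and 13.0% lower. The share called was below this for the mitochondrial ribosome, at 15 of 75. MRPS34, of the small mitochondrial subunit, was higher in GF than in FO with a log2 fold change of 1.43 ± 0.29 (adjusted p = 0.00383) and RPL34, of the cytosolic ribosome, lower with a log2 fold change of -2.01 ± 0.22 (adjusted p = 0.000144). Against control testis, the mitochondrial ribosome had 3 genes higher and 13 lower in GF and 18 lower in FO, of 76 tested, and the cytosolic ribosome 2 higher and 13 lower in GF and 18 higher and 1 lower in FO. Of all genes tested, 14.0% were higher and 11.8% lower in GF, and 8.12% and 10.6% in FO. Of 9 carriers and channels that move metabolites, 1 was higher in GF than in FO, SLC25A1 of citrate export (1.92 ± 0.34, adjusted p = 0.00191), and 1 lower, SLC25A3 of phosphate import (-1.10 ± 0.32, adjusted p = 0.0215, at most 0.0589 without FO 4). These were 1.15 for SLC25A1 and -0.60 for SLC25A3 without GF 3 and GF 4, and SLC25A3 did not pass without FO 1 and GF 3 (adjusted p = 0.088). Against control testis, 2 of the 9 were lower in GF and 1 in FO.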

How the data were processed

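QuantSeq 3' libraries were made from Trizol-extracted polyA RNA, per the labels. The deposited file holds raw counts per gene name for 10 libraries, read as whole numbers; per the submitters' processing notes, DESeq2 1.42.0 and the build Sscrofa11.1 were used, with no role stated, and which aligner, counter or strand setting made them is not given in the sources used here. A column's group letters and number matched it to a title, with F read as FO. Control libraries carry the graft's growth protocol in the labels, and the titles were used for groups.

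Members were taken by name pattern from the table, and complex and role by hand; coordinates come from RefSeq (Sscrofa11.1). The members and the lists of other genes were chosen with earlier results of these data known. Genes were filtered with filterByExpr (minimum count 10), scaled with TMM and tested with edgeR 4.0.16 (robust quasi-likelihood, R 4.3.3), with Benjamini-Hochberg adjustment over all genes and a call at an adjusted p under 0.05. GF versus FO used the 8 graft libraries; comparisons with control testis used all 10 in 1 fit. SE is the log2 fold change over the root of F, and fold changes of low genes are shrunk by a prior count. "At most" beside an adjusted p is its highest value when 1 library is left out. QuantSeq reads 1 end per transcript, so levels were not divided by length, and levels are compared within a gene or summed. Steps were tested on simulated data. Library sums get no p.

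Named with values were, in each comparison and complex, up to 4 called members with the lowest p, paralogs with a tissue-restricted partner, the subunits NDUFS1, NDUFV1, SDHA to SDHD, ATP5A1 and ATP5B, called members moving against most of their complex, and up to 4 called genes of each other list; the genes beyond this, such as NDUFS7, NDUFA3, NDUFB7 and ATP5O, complete a count or a division and were added after their values were seen. Alternatives were DESeq2 1.42.0, scaling by RLE or total counts, keeping genes with low counts, a block for replicate number, a fold threshold of 1.5, mitochondrial and haemoglobin genes left out, thinning to the lowest total, other libraries in the fit, and leaving out libraries. For 1 member, values are not reported here, though counts and sums include it.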

Additional observations from a re-analysis of the deposited data

Results flagged for a closer look

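In 146 groups of 4 libraries (each gene, and each complex sum, in GF and in FO) the highest or lowest library was compared with the rest, and 4 stood apart by Dixon's criterion at 95%; chance marks about 1 group in 20. NDUFA11 was 79.4 CPM in GF 2, where the other GF libraries had 57.7 to 60.1 CPM. COX6A1 was 83.2 CPM in GF 3, where the others had 166 to 181 CPM. NDUFA4 was 179 CPM in GF 1, where the others had 155 to 159 CPM. SDHB was 52.9 CPM in FO 2, where the other FO libraries had 40.3 to 41.8 CPM. Without GF 2, NDUFA11 was still called higher in GF than in FO, and the other 3 genes were not called in that comparison with all libraries.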

How the results depend on the processing

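No fold change of a called gene changed sign under any alternative. Of the counts of calls for GF versus FO (10 higher, 9 lower), the higher count was 4 with a fold threshold of 1.5 and 4 without FO 1 and GF 3; the lower count was 14 with DESeq2, 2 with total counts, 1 with the fold threshold and 3 without FO 1 and GF 3. Leaving out 1 library gave 4 to 10 higher and 2 to 14 lower, with medians of -0.41 to -0.25. For GF versus control (0 higher, 25 lower), the higher count was 2 with DESeq2 and 1 with total counts, and the lower count 14 with the fold threshold and 16 with only the 6 libraries compared; leaving out 1 library gave 0 to 3 higher, 6 to 33 lower and medians of -0.98 to -0.68. For FO versus control (0 higher, 19 lower), the lower count was 9 with the fold threshold; without GF 3 and GF 4 it was 35 with 2 higher, and with only the 6 libraries compared 34 with 1 higher; leaving out 1 library gave 0 higher, 4 to 15 lower and medians of -0.66 to -0.38. With mitochondrial and haemoglobin genes left out, the mean sum in FO was 2635 CPM for complex I and 4604 CPM for complex V. The causes were not tested.

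Same-numbered GF and FO libraries correlated by 0.0549, 0.218, 0.0764 and 0.103 in their deviations from the group means, and GF 1 and GF 4 correlated best with another number, so the numbers were not taken as pairing. With the replicate number as a block, 8 genes were higher and 16 lower in GF than in FO, 0 and 20 in GF than in control testis, and 1 and 17 in FO than in control testis, with a median of -0.35 in the last (-0.58 without the block).

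For single genes, of 528 leave-one-out results for GF versus FO 462 kept their direction and side of the threshold, as did 344 of 402 for GF and 355 of 402 for FO against control testis. Depth limits SDHD and the 2 control libraries limit both comparisons with testis.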
